A study of Mus musculus with 20 samples.

Results

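Trimethylation of histone H3 at lysine 4 (H3K4me3) was listed at 1514 places of chromosomes 1 to 19 in fetal liver hematopoietic stem cells (HSCs) where the adult bone marrow HSC list had no peak. These fetal-only peaks were chosen by measured values: each is a peak of the fetal H3K4me3 list that shares not even 1 bp with a peak of the adult H3K4me3 list. They made up 9.14% (8.70 to 9.59) of the 16567 fetal peaks on these chromosomes. The other 15053 fetal peaks overlapped an adult peak and are called shared peaks here. Values in parentheses after a share are 95% exact Clopper-Pearson intervals, which cover counting error over peaks only.

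The cells came from B6129SF1 mice, at embryonic day 14.5 for the liver and at 6 to 8 weeks for the marrow, and the labels name no transgene or treatment. Both stages were sorted by the same surface markers, Lin-Sca1+cKit+CD135-, a gate that also admits multipotent cells close to HSCs, and each ChIP took 50000 cells. For each of 4 marks (H3K4me3, H3K27ac, H3K4me1 and H3K27me3) and each stage, 1 list of peaks was used, titled as the combination of 2 replicates. No value therefore carries a replicate error, no test between stages was possible, and stage cannot be told apart from library, depth or peak call. Coordinates are on mm9 and 1-based. No gene table or genome sequence of that build was used, so peaks are named by position, the cell type could not be checked against marker genes, and no sequence is shown.

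H3K4me3 is laid down at the starts of transcribed genes and at CpG-rich promoters that are held ready for transcription. Acetylation at lysine 27 (H3K27ac) accompanies active promoters and enhancers, monomethylation at lysine 4 (H3K4me1) marks enhancers and the flanks of promoters, and trimethylation at lysine 27 (H3K27me3) is written by Polycomb repressive complex 2. Promoters with both H3K4me3 and H3K27me3 are called bivalent and are typical of developmental regulators in stem cells. Fetal liver HSCs divide and expand, whereas most adult marrow HSCs are quiescent.

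The fetal-only peaks were narrow and of low score. Their median width was 800 bp, with 676 and 963 bp as the quartiles, against a median of 1839 bp for shared peaks. They held 1.32 Mb of the 30.9 Mb under fetal H3K4me3, or 4.27%. The score, a number from the authors' peak caller with no stated unit, starts at 50 in the fetal list and piles up at 3100. Fetal-only peaks had a median score of 87.5 and shared peaks one of 2084. In the lowest quartile of the fetal list, up to a score of 286.9, lay 1419 of the 1514, another 90 lay in the second quartile and 5 in the upper part of the list above its median of 1703. Score and width come from the list that chose these peaks, so they are given as a description, with no test.

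The share of fetal peaks without an adult peak fell from band to band of score. It was 60.0% (56.8 to 63.2) of the 946 peaks with a score from 50 to 75, 45.1% (41.4 to 48.8) from 75 to 100, 32.2% (29.2 to 35.3) from 100 to 150 and 14.4% (12.7 to 16.2) from 150 to 300. From 300 upward it was 0.674% (0.537 to 0.835), or 83 of 12318 peaks. Within a band of score the widths were close: fetal-only and shared peaks had medians of 653.5 and 675.5 bp between 50 and 75, and of 1081 and 1071 bp between 150 and 300. Only 18 of the fetal-only peaks were 2000 bp or wider, against 6333 of the shared peaks.

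**Figure D1:**
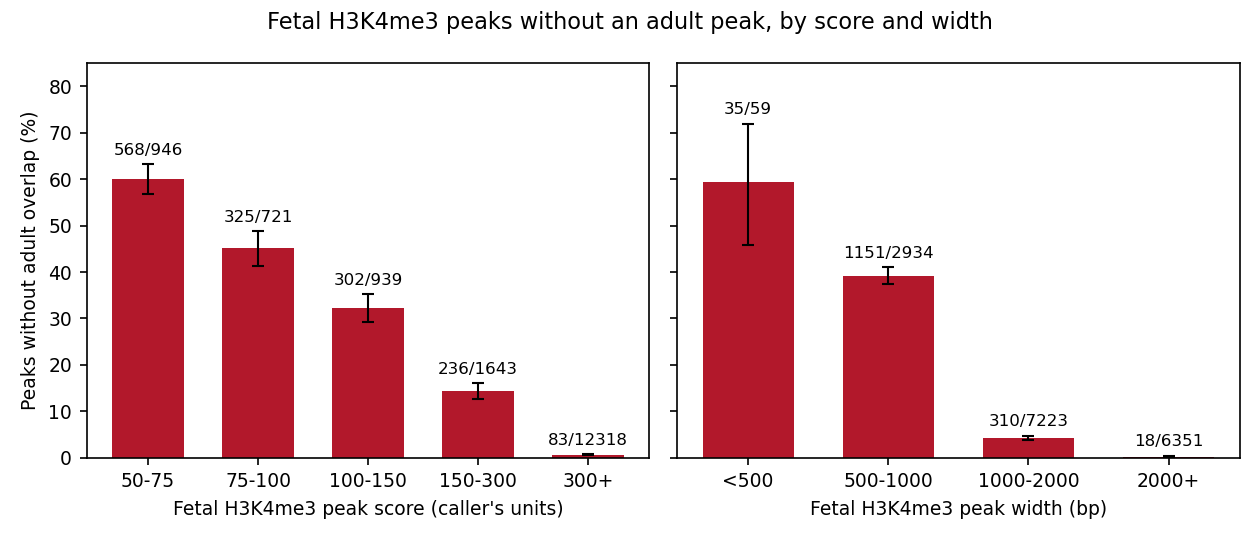
Percentage of fetal H3K4me3 peaks on chromosomes 1 to 19 without an adult H3K4me3 peak, by peak score (left, caller's units) and by peak width in bp (right); bars show the share, lines its 95% Clopper-Pearson interval, and the counts over the bars the number without an adult peak over all peaks of the band. The share falls from 60.0% in the lowest score band to 0.674% at scores of 300 and over.

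Just inside the rule were 3 peaks that missed an adult peak by a few bases. The one on chromosome 4 from 43056905 to 43057786 lay 4 bp from an adult peak, the one on chromosome 2 from 180953107 to 180953835 lay 6 bp away, and the one on chromosome 3 from 156223508 to 156224249 lay 47 bp away. Just outside it, shared peaks on chromosome 11 from 49060305 to 49063268, on chromosome 12 from 74211699 to 74212312 and on chromosome 1 from 69152597 to 69153484 overlapped adult peaks by 19, 43 and 54 bp. Few peaks sat this close to the limit. An adult peak lay within 100 bp of 9 fetal-only peaks and within 1 kb of 101, and 3 shared peaks owed their place to an overlap of 100 bp or less.

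The other 3 marks were not used to choose the peaks. H3K27ac was listed in fetal HSCs at 522 of the 1514, or 34.5% (32.1 to 36.9), against 74.5% of all fetal H3K4me3 peaks. Fetal H3K4me1 was found at 1160, or 76.6% (74.4 to 78.7), against 87.3%. The fetal H3K4me1 list is longer than the adult one: with both cut to the same number of top-scoring peaks, fetal H3K4me1 was found at 29.3% (27.04 to 31.7) of fetal-only and 20.5% (19.9 to 21.1) of all fetal H3K4me3 peaks. Fetal H3K27me3 was found at 538, or 35.5% (33.1 to 38.0), against 22.6%. Fetal-only peaks thus carried acetylation less often, and the Polycomb mark more often, than the list they came from.

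Much of that distance to the whole list was also seen among weak shared peaks. Of the 2724 shared peaks in the lowest score quartile, 41.7% (39.8 to 43.5) had fetal H3K27ac, 78.2% (76.6 to 79.7) fetal H3K4me1 and 36.7% (34.9 to 38.5) fetal H3K27me3. Fetal-only peaks of that quartile had them at 33.4% (31.0 to 35.9), 76.0% (73.7 to 78.2) and 35.0% (32.5 to 37.6). Within the quartile, with the lists as deposited, the intervals of the groups overlapped for H3K4me1 and H3K27me3 and did not for H3K27ac. In bands of score, those for H3K27ac overlapped from 50 to 75, at 35.7% (31.8 to 39.8) against 39.7% (34.7 to 44.8). They also overlapped from 75 to 100, but not from 100 to 150 or from 150 to 300. With H3K4me1 lists of equal length, fetal H3K4me1 was at 29.0% (26.7 to 31.5) of fetal-only and 22.8% (21.2 to 24.4) of shared peaks of the quartile.

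In the adult lists, H3K27ac was found at 312 fetal-only peaks, or 20.6% (18.6 to 22.7), against 74.0% of all fetal H3K4me3 peaks. Adult H3K4me1 was found at 192, or 12.7% (11.0 to 14.5), against 10.3%, and adult H3K27me3 at 416, or 27.5% (25.2 to 29.8), against 14.6%. The corresponding shares at shared peaks of the lowest quartile were 35.6% (33.8 to 37.5), 8.37% (7.36 to 9.47) and 25.8% (24.1 to 27.5). Adult H3K27ac was thus lower at fetal-only than at weak shared peaks, and adult H3K4me1 higher. Adult H3K27me3 had overlapping intervals there and in each of the 4 bands of score below 300, although its share was higher at fetal-only peaks in all 4, from 21.3% (18.0 to 24.9) against 16.4% (12.8 to 20.5) between 50 and 75 to 34.7% (28.7 to 41.2) against 31.1% (28.7 to 33.6) between 150 and 300. None of the 3 marks was listed in adult cells at 742 fetal-only peaks, or 49.0% (46.5 to 51.6), against 14.9% of all fetal H3K4me3 peaks and 39.7% (37.8 to 41.6) of shared peaks of the lowest quartile.

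**Figure D2:**
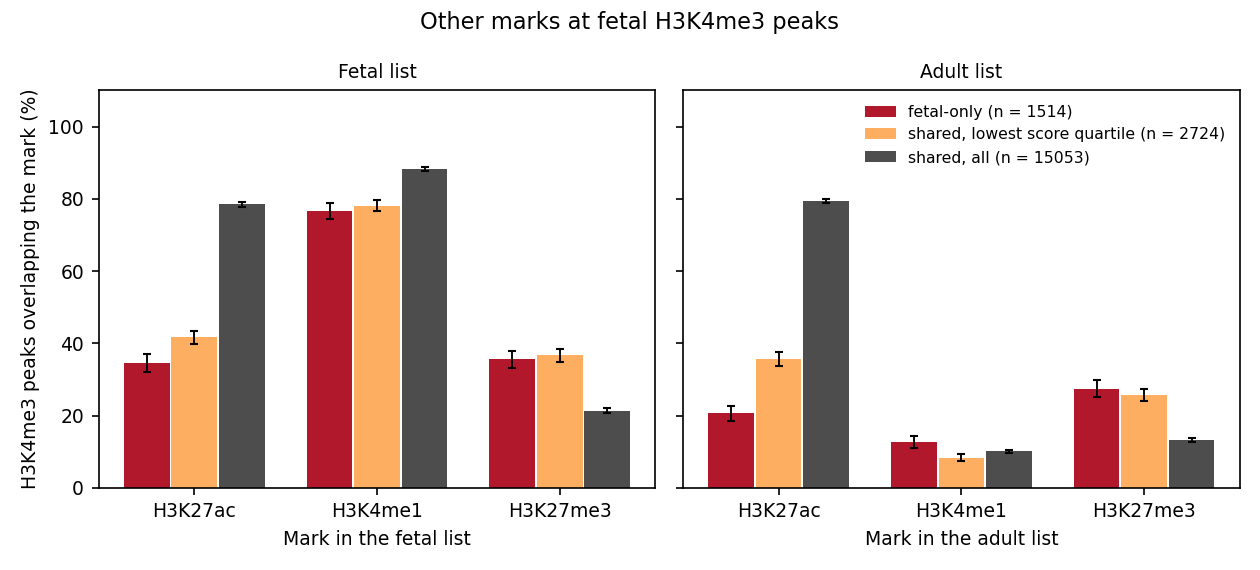
Percentage of fetal-only H3K4me3 peaks (1514), shared peaks of the lowest score quartile (2724) and all shared peaks (15053) that overlap each of 3 other marks in the fetal list (left) and the adult list (right); lines show 95% Clopper-Pearson intervals. The lists are used as deposited and the groups are not matched by score. Fetal-only peaks stand near the weak shared peaks for fetal H3K4me1 and for H3K27me3 of both stages. They stand below them for H3K27ac, at 34.5% against 41.7% in the fetal and 20.6% against 35.6% in the adult list, and above them for adult H3K4me1, at 12.7% against 8.37%. Within the bands of score below 150 the intervals for adult H3K4me1 overlapped.

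To follow each mark from stage to stage, both lists were read at the same peaks. Of the 522 fetal-only peaks with fetal H3K27ac, 288 also had adult H3K27ac, or 55.2% (50.8 to 59.5). Over all fetal H3K4me3 peaks with fetal H3K27ac, 92.3% had it in the adult list, and over shared peaks of the lowest quartile 69.2% (66.4 to 71.8). At 234 fetal-only peaks H3K27ac was in the fetal list only and at 24 in the adult list only. Over all fetal H3K4me3 peaks these counts were 950 and 868, and over shared peaks of the lowest quartile 350 and 186. Where fetal H3K27ac was absent, adult H3K27ac appeared at 2.42% (1.56 to 3.58) of fetal-only peaks, against 11.7% (10.2 to 13.4) of shared peaks of the lowest quartile. In each of the 4 bands of score below 300 the share with adult H3K27ac among peaks with the fetal mark was lower at fetal-only than at shared peaks, but the intervals overlapped in all 4. The band from 300 upward is not compared here, since its shared peaks had a median score of 2786 and its fetal-only peaks one of 408. From 50 to 75 it was 53.2% (46.1 to 60.2) against 65.3% (57.1 to 72.9). Between the lowest quartile and the median of the list, 23 of 44 fetal-only peaks with fetal H3K27ac also had it in adult cells, or 52.3% (36.7 to 67.5), against 87.2% (85.9 to 88.5) of 2528 shared peaks. The groups were not matched by score within this range either.

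With the lists as deposited, H3K27me3 was more often in both lists than H3K27ac. With both lists of a mark cut to equal length, the intervals for fetal-only peaks with the fetal mark overlapped. The shares were then 64.5% (59.8 to 69.0) for H3K27ac and 66.4% (62.2 to 70.3) for H3K27me3. Of the 538 fetal-only peaks with fetal H3K27me3, 405 also had it in the adult list, or 75.3% (71.4 to 78.9), against 62.8% over all fetal H3K4me3 peaks with fetal H3K27me3. At 133 it was in the fetal list only and at 11 in the adult list only. These counts were 1393 and 64 over all fetal H3K4me3 peaks, and 306 and 9 over shared peaks of the lowest quartile. In the share with the adult mark, shared peaks of the lowest quartile were nearer to fetal-only peaks, at 69.4% (66.4 to 72.2), with overlapping intervals. Between the lowest quartile and the median of the list, 34 of 38 fetal-only peaks with fetal H3K27me3 had the adult mark, or 89.5% (75.2 to 97.1), against 63.1% (60.8 to 65.5) of 1658 shared peaks. Within this range the groups were not matched by score. In the bands of score below 300 the intervals of the groups overlapped, as between 150 and 300, where the shares were 76.0% (66.6 to 83.8) and 72.4% (68.6 to 76.0). H3K4me1 was listed in adult cells at 190 of the 1160 fetal-only peaks with the fetal mark, or 16.4% (14.3 to 18.6), against 11.6% over all fetal H3K4me3 peaks with fetal H3K4me1. With H3K4me1 lists of equal length these shares were 33.8% (29.4 to 38.4) and 26.6% (25.1 to 28.1). Where adult H3K4me1 was listed it covered a median of 186.5 bp of the fetal-only peak, against 175 bp over all fetal H3K4me3 peaks.

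By their fetal marks the 1514 peaks fell into 2 groups of like size and 3 smaller ones. H3K27ac without H3K27me3 was found at 499, called acetylated here, or 33.0% (30.6 to 35.4). H3K27me3 without H3K27ac was found at 515, called bivalent here, or 34.0% (31.6 to 36.5). In lists from many cells, marks on the same chromosome and marks in different cells cannot be told apart. Both marks lay at 23. H3K4me1 alone accompanied 268 peaks, or 17.7% (15.8 to 19.7), and 209, or 13.8% (12.1 to 15.6), had no other fetal mark. In shared peaks of the lowest quartile these shares were 38.7%, 33.7%, 3.01%, 13.4% and 11.2%, and in all shared peaks 70.9%, 13.7%, 7.61%, 4.53% and 3.24%.

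The acetylated and the bivalent peaks had like widths, with medians of 831 and 821 bp, and median scores of 85.1 and 100.05. Peaks with H3K4me1 alone had a median width of 757.5 bp, and those with no other fetal mark one of 708 bp. H3K4me1 accompanied 95.2% (92.9 to 96.9) of the acetylated peaks and 77.1% (73.2 to 80.6) of the bivalent ones. Acetylated peaks lay closer to a shared H3K4me3 peak, at a median gap of 15467 bp, than bivalent peaks, at 33768 bp, and peaks with no other fetal mark lay farthest, at 48769 bp.

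The fetal class went with the adult marks. Adult H3K27ac was found at 286 of the 499 acetylated peaks, or 57.3% (52.8 to 61.7), and adult H3K27me3 at 2 of them. Adult H3K27me3 was found at 390 of the 515 bivalent peaks, or 75.7% (71.8 to 79.4), and adult H3K27ac at 11. Few of these fetal-only peaks thus had one mark in the fetal and the other in the adult list. The same counts over all fetal H3K4me3 peaks are not given here. The peaks with H3K4me1 alone mostly had no adult mark, at 237 of 268 or 88.4% (84.0 to 92.0), against 69.2% (66.1 to 72.1) of all fetal H3K4me3 peaks of that kind and 79.5% (75.005 to 83.5) of weak shared ones. Of the 209 peaks with no other fetal mark 201 had no adult mark, against 84.5% (81.6 to 87.1) of all such fetal H3K4me3 peaks. The first class was counted with the longer fetal H3K4me1 list, not cut to the length of the adult one. These 201 peaks, 13.3% (11.6 to 15.1) of all, were listed for no other mark at either stage, against 10.02% (8.92 to 11.2) of weak shared peaks, and their median width was 707 bp and their median score 81.0.

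**Figure D3:**
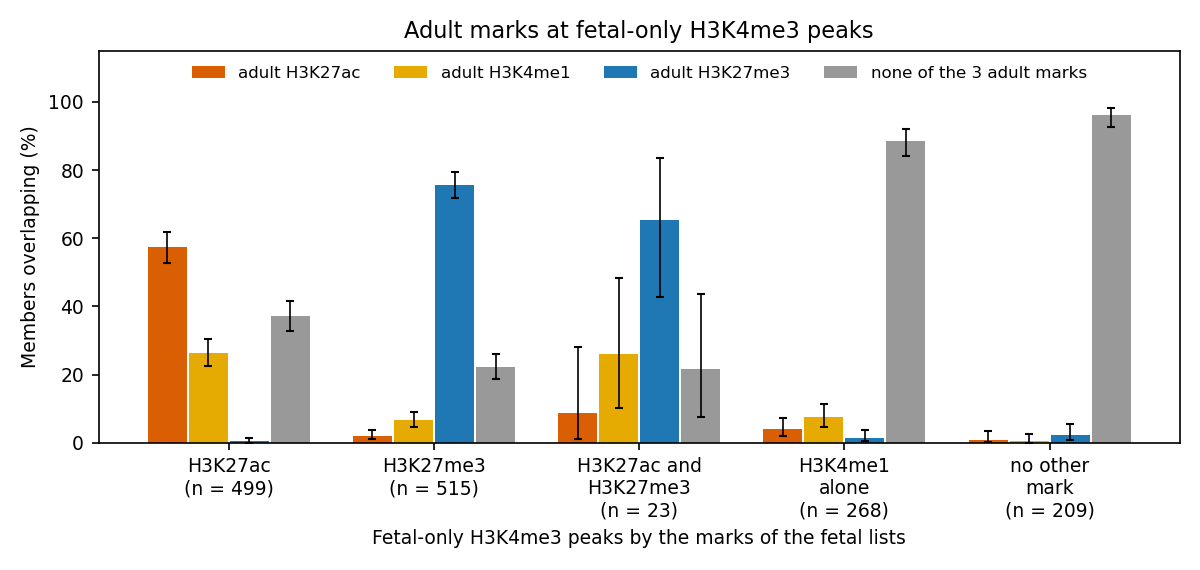
Percentage of fetal-only H3K4me3 peaks that overlap adult H3K27ac, adult H3K4me1, adult H3K27me3 or none of them, by the marks of the fetal lists; n is the number of peaks per class and lines are 95% Clopper-Pearson intervals. Adult H3K27ac is found at 57.3% of the acetylated class and adult H3K27me3 at 75.7% of the bivalent class.

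Taken by full combination over both stages, the most frequent was H3K4me1 and H3K27me3 in fetal and H3K27me3 in adult cells, at 282 peaks. H3K4me1 in fetal and nothing in adult cells followed with 237. H3K27ac and H3K4me1 were found in fetal cells with adult H3K27ac at 178, with no adult mark at 164 and with adult H3K27ac and H3K4me1 at 105. At these last 105 peaks H3K4me3 was the only mark of the 4 that differed between the lists. How often each combination occurs over all fetal H3K4me3 peaks is not given here.

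The fetal-only peaks with a score of 300 or more, a limit chosen after the values were seen, numbered 83. Of these, 38 were acetylated, 28 bivalent and 6 had both marks, while 7 had H3K4me1 alone and 4 no other fetal mark. Their median width was 1516 bp. Adult H3K27me3 was found at 27 of the 28 bivalent peaks, and adult H3K27ac at none of them. Adult H3K27ac was found at 20 of the 38 acetylated peaks. The bivalent ones lay at a median gap of 92198 bp from a shared H3K4me3 peak and the acetylated ones at 11965 bp. As base shares, not matched by score, shared peaks of 300 or more had adult H3K27me3 at 56.5% (54.3 to 58.6) of those with fetal H3K27me3. They had adult H3K27ac at 96.7% (96.3 to 97.0) of those with fetal H3K27ac. These shares also count peaks with both fetal marks.

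In the second quartile of score, which holds 90 fetal-only peaks, fetal H3K27me3 was found at 42.2% (31.9 to 53.1) of fetal-only and 40.9% (39.4 to 42.5) of shared peaks. Fetal H3K27ac was found there at 48.9% (38.2 to 59.7) and 62.4% (60.9 to 63.9), and adult H3K27me3 at 41.1% (30.8 to 52.0) and 26.3% (24.9 to 27.6). Scores of the groups were not matched within this quartile, which runs from 286.9 to 1703.

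Single peaks are named here by their rank in score, in width or in length of a mark, not as typical members. The highest score, 3100, belonged to a peak of 5341 bp on chromosome 11 from 95864405 to 95869745. Fetal H3K27ac covered 4498 bp of it, fetal H3K4me1 2128 bp and fetal H3K27me3 931 bp. In adult cells H3K27me3 covered 4948 bp, H3K4me1 167 bp and H3K27ac none, and the nearest adult H3K4me3 peak was 25626 bp away. H3K27ac thus covered most of this peak in the fetal lists and H3K27me3 most of it in the adult ones.

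The widest member, 6583 bp on chromosome 12 from 114662442 to 114669024, had a score of 2768. Fetal H3K27ac covered 5363 bp and fetal H3K4me1 995 bp, and no adult mark and no H3K27me3 overlapped it. No adult H3K4me3 peak lay within 201464 bp. On chromosome 13 from 56277007 to 56280670, a peak of 3664 bp with a score of 2444 had 1222 bp of fetal H3K27ac, 1313 bp of fetal H3K4me1 and no adult mark. A peak of 3380 bp on chromosome 8 from 82916040 to 82919419, with a score of 1185, had 1980 bp of fetal H3K27ac and in adult cells 379 bp of H3K4me1 alone. At these 3 peaks H3K27ac and H3K4me3 were both listed in fetal cells and not in adult cells.

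The fifth widest peak kept its other marks. This peak, 2994 bp on chromosome 2 from 90922129 to 90925122 with a score of 442.0, was covered over its whole length by H3K27ac at both stages and by fetal H3K4me1, and adult H3K4me1 covered 831 bp. Its nearest adult H3K4me3 peak lay 2503 bp away. By length of fetal H3K27ac with none in adult cells, 2 further peaks ranked among the first 5. One lay on chromosome 12 from 113998748 to 114000962, with 2039 bp of fetal H3K27ac, and the other on chromosome 11 from 98824155 to 98826149, with 1922 bp. Adult H3K4me1 covered 555 bp of the first and 1062 bp of the second, so these places still carried a listed mark in adult cells.

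The 5 members with the most fetal H3K27me3 were all covered by adult H3K27me3 in part and by no H3K27ac at either stage. On chromosome 13 from 23503007 to 23505707, a peak with a score of 1400 was covered by fetal H3K27me3 over all 2701 bp and by adult H3K27me3 over 2117 bp. On chromosome 8 from 9770099 to 9772185 these lengths were 2087 and 1641 bp, on chromosome 19 from 30622869 to 30624880 they were 2012 and 1542 bp, and on chromosome 13 from 119502478 to 119504238 they were 1761 and 1189 bp. The peak on chromosome 8 from 52000222 to 52002187 had 1966 bp of fetal and 272 bp of adult H3K27me3. It stood 2070646 bp from the nearest shared H3K4me3 peak.

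Distances were measured as the number of bases between the ends of peaks. The median gap from a fetal-only peak to the nearest shared H3K4me3 peak was 23286 bp, with 6622 and 78844 bp as the quartiles. From a shared peak to the next shared peak the median was 24834 bp, with 9014 and 59581 bp. The spread was thus wider on both sides for fetal-only peaks. Within 1 kb of a shared peak lay 7.13% (5.89 to 8.55) of fetal-only peaks, against 4.52% (4.20 to 4.87) of shared peaks with another shared peak. Beyond 500 kb these shares were 3.43% (2.58 to 4.48) and 1.38% (1.20 to 1.58).

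Close and remote fetal-only peaks carried different marks. Among the 108 within 1 kb of a shared peak, 47.2% (37.5 to 57.1) had fetal H3K27ac, 92.6% (85.9 to 96.7) fetal H3K4me1 and 27.8% (19.6 to 37.2) fetal H3K27me3. Their shared neighbours had a median width of 2174 bp and a median score of 2176. Between 50 and 500 kb the shares were 24.4% (20.5 to 28.6), 64.4% (59.8 to 68.8) and 41.5% (37.0 to 46.2). Beyond 500 kb, 3 of 52 peaks had fetal H3K27ac and 37 fetal H3K27me3, or 71.2% (56.9 to 82.9). None of those 52 had adult H3K27ac (upper bound 6.85%), and 27 had adult H3K27me3. Fetal H3K27ac also fell with distance in shared peaks of the lowest score quartile, from 53.0% (46.4 to 59.6) within 1 kb of another shared peak to 18.4% (7.74 to 34.3) beyond 500 kb. Their fetal H3K27me3 was at 34.9% (28.8 to 41.4) and, over 38 peaks, 52.6% (35.8 to 69.0), with intervals that overlap. Over all shared peaks, not matched by score, the interval for fetal H3K27me3 ran from 23.4 to 30.2% within 1 kb. Beyond 500 kb, over 208 peaks, this interval ran from 43.0 to 57.0%. A higher share at remote peaks was thus also seen among shared peaks. Fetal H3K4me1 at weak shared peaks was at 82.3% (76.8 to 87.0) within 1 kb. Between 50 and 500 kb it was at 70.5% (67.1 to 73.7).

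**Figure D4:**
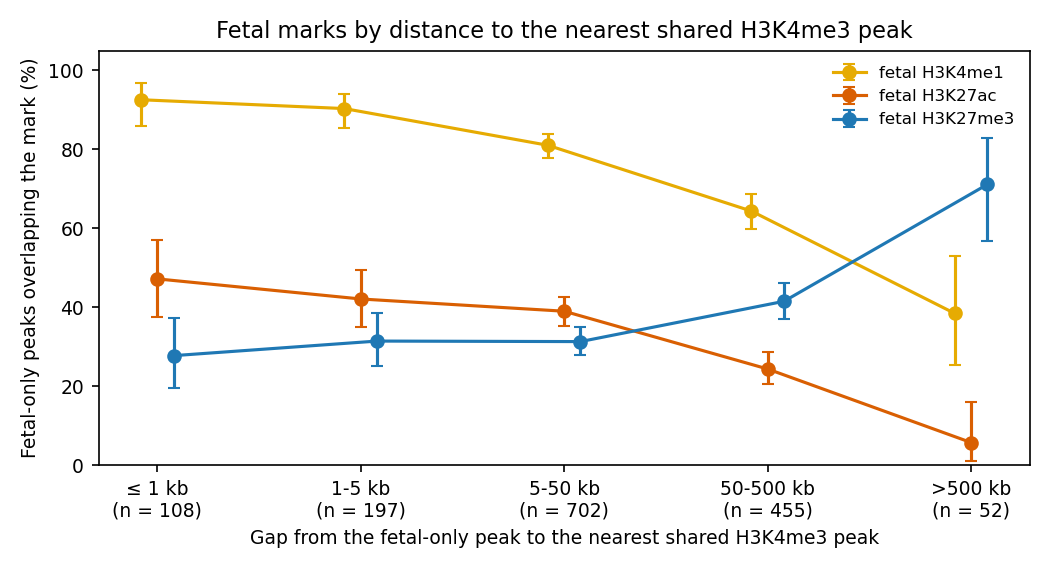
Percentage of fetal-only H3K4me3 peaks that overlap fetal H3K4me1, H3K27ac or H3K27me3, by the gap to the nearest shared H3K4me3 peak; n is the number of fetal-only peaks per band and lines through the points are 95% Clopper-Pearson intervals. H3K27ac falls from 47.2% within 1 kb to 3 of 52 peaks beyond 500 kb, where H3K27me3 reaches 71.2%.

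Some fetal-only peaks lay under the same peak of another mark as a shared H3K4me3 peak. Of the 522 with fetal H3K27ac, 60 sat in an H3K27ac peak that also touched a shared H3K4me3 peak, or 11.5% (8.89 to 14.5), and weak shared peaks sat in one that touched another shared peak at 11.0% (9.25 to 12.98). For H3K27me3 this held for 76 of 538, or 14.1% (11.3 to 17.4), and for 17.6% (15.3 to 20.1) of the weak shared peaks. Fetal-only and weak shared peaks thus had overlapping intervals for both marks. H3K27me3 covered 411 of the 538 members over their whole length, or 76.4% (72.6 to 79.9), against 77.2% (74.4 to 79.7) of weak shared peaks and 56.9% (55.3 to 58.5) of all fetal H3K4me3 peaks with the mark. The H3K27me3 peaks at fetal-only peaks had a median width of 3933 bp, those at weak shared peaks one of 4029 bp and those at all shared peaks one of 2940 bp. For H3K27ac peaks these medians were 2174, 1814 and 2070 bp.

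Most fetal-only peaks stood alone, and a part of them lay next to each other. For 251 of them, or 16.6% (14.7 to 18.5), the nearest other fetal H3K4me3 peak was fetal-only too. Over all fetal H3K4me3 peaks the nearest neighbour was fetal-only for 9.43%, and over shared peaks for 8.72% (8.27 to 9.18). Another fetal-only peak lay within 50 kb of 360, or 23.8% (21.7 to 26.0), against 15.0% of all fetal H3K4me3 peaks and 14.7% (13.4 to 16.1) of weak shared ones. They formed 160 runs of at least 2 peaks at gaps of up to 50 kb, of which 28 had at least 3 peaks and 7 at least 4, and the other 1154 peaks stood alone. Neighbours were often of one kind: the nearest fetal-only peak within 50 kb was also bivalent for 94 of 136 bivalent peaks, or 69.1% (60.6 to 76.8), where bivalent peaks were 37.8% of the 360. It was also acetylated for 72 of 114 acetylated peaks, or 63.2% (53.6 to 72.0), where these were 31.7%. For H3K4me1 alone it was of the same kind for 15 of 70, or 21.4% (12.5 to 32.9), where these were 19.4%, and for no other fetal mark for 6 of 33, or 18.2% (6.98 to 35.5), where these were 9.17%. How often neighbours among shared H3K4me3 peaks are of one kind was not tested, so this likeness is not read as a trait of fetal-only peaks. How many neighbours lie under a single peak of H3K27ac or H3K27me3 was not tested either.

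The share of fetal-only peaks by chromosome ran from 7.20% (5.14 to 9.75) on chromosome 16 to 12.96% (10.7 to 15.5) on chromosome 13. Chromosome 12 came next, at 11.96% (9.53 to 14.8), and these were the only chromosomes of the 19 whose interval lay wholly above the 9.14% of all. Of the 83 peaks with a score of 300 or more, 17 were on chromosome 13, which held 565 of all 12318 fetal peaks of that score. Bins of 1 Mb with a fetal H3K4me3 peak numbered 1997, of which 900 held a fetal-only peak and 31 held 5 or more.

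The bin with most fetal-only peaks was on chromosome 13 from 23000001 to 24000000, with 12 of 48 fetal peaks, 7 of them with a score of at least 300. The 2 bins before it, from 21000001 to 23000000, held 8 and 7. Over these 3 Mb, a stretch chosen after its values were seen, 27 of 116 fetal peaks were fetal-only, or 23.3% (15.9 to 32.0), with a median score of 203 against 86.8 for the other 1487. Fetal H3K27me3 was found at 15 of the 27, or 55.6%, fetal H3K27ac at 4, or 14.8%, and adult H3K27ac at 1, or 3.70%. For the other 1487 these shares were 35.2%, 34.8% and 20.9%. Without chromosome 13 the share of fetal-only peaks next to a fetal-only peak was 15.6%. As background, the RefSeq table of GRCm38.p6 places 53 of 67 core and linker histone genes and 105 of 430 tRNA genes on chromosome 13; whether the peaks lie at these genes was not tested, since the builds differ.

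The 3 runs with most members differed in their marks. On chromosome 3 from 96205258 to 96279368, 6 fetal-only peaks with scores from 68.0 to 516.1 stood in 74111 bp around 1 shared peak. The shared peak, from 96217565 to 96219180, had H3K27ac at both stages and no H3K27me3. Fetal H3K27me3 was found at 5 of the 6 fetal-only peaks around it, adult H3K27me3 at the same number, and H3K27ac at none at either stage. In this run the acetylated peak was thus in both H3K4me3 lists and the peaks with H3K27me3 in the fetal one alone.

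On chromosome 13 from 21988509 to 22026476, 6 fetal-only peaks with scores from 107 to 815 lay among 2 shared peaks within 37968 bp. None of the 6 had H3K27ac or an adult mark, 1 had fetal H3K27me3 and 2 had fetal H3K4me1. The 2 shared peaks were only partly covered by adult H3K4me3. From 22005748 to 22007339 the adult peak covered 859 of 1592 bp, and from 22008980 to 22012196 it covered 1574 of 3217 bp. Adult H3K4me3 was thus listed over a smaller length of this run at its shared peaks too.

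On chromosome 5 from 143670131 to 143737072, the 5 fetal-only peaks had scores from 58.6 to 119. Fetal H3K4me1 was found at all 5, fetal H3K27ac at 3, adult H3K27ac at 1 and H3K27me3 at none. A further run on chromosome 13, from 23389811 to 23405729, was chosen after its values were seen because no shared peak lies in it. Its 4 fetal-only peaks had scores from 131 to 2263 and all 4 had H3K27me3 at both stages, fetal H3K4me1 and no H3K27ac. The first of them, from 23389811 to 23392309, was the member with the fourth highest score. The member with the fifth, from 23492574 to 23494833 on the same chromosome with a score of 1963, had 1449 bp of fetal H3K27ac, 1411 bp of fetal H3K27me3 and 1237 bp of adult H3K27me3.

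**Figure D5:**
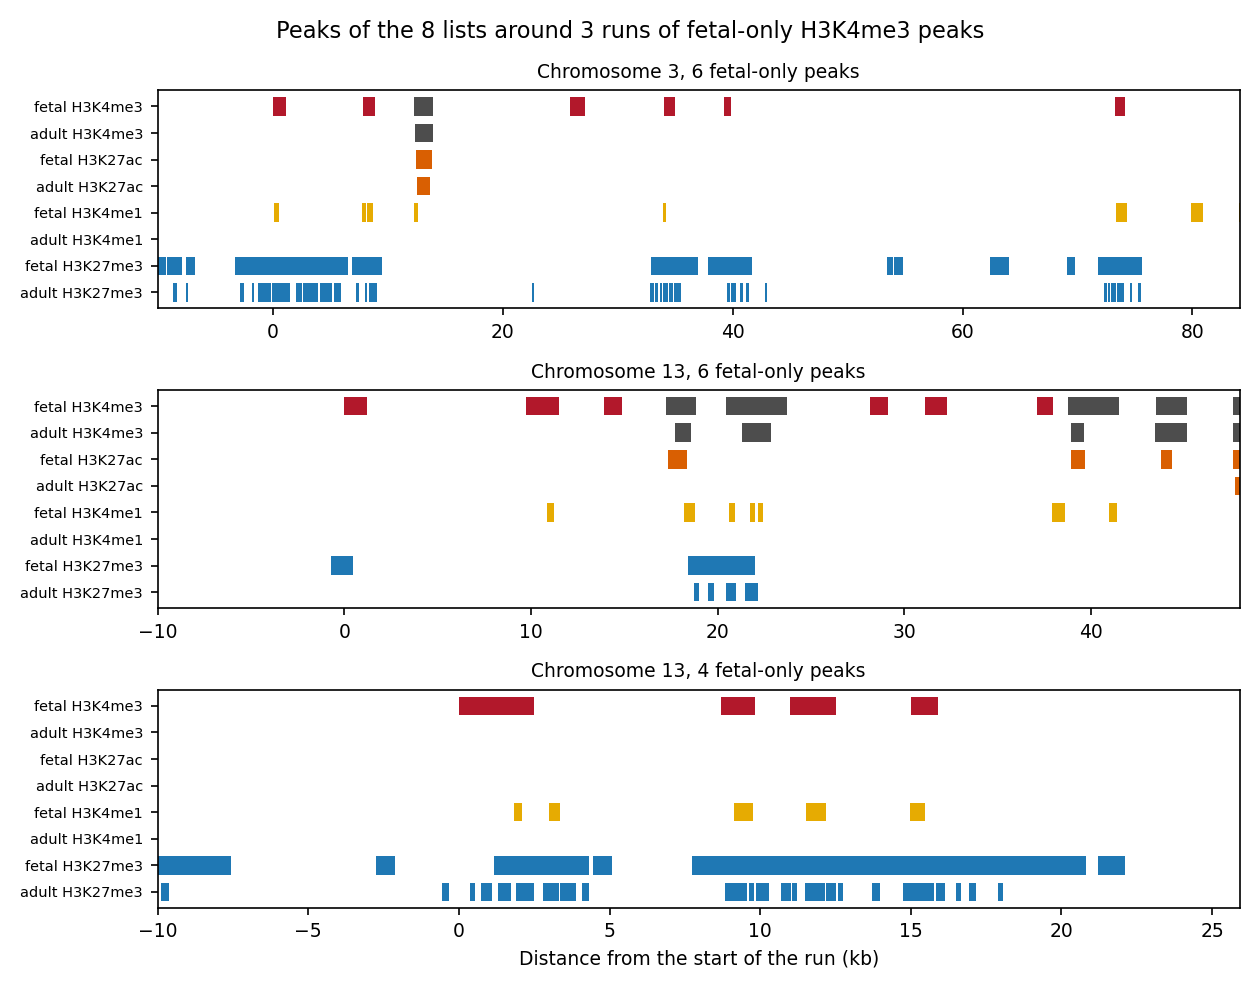
Peaks of the 8 lists around 3 runs of fetal-only H3K4me3 peaks on chromosomes 3 and 13, drawn to scale as bars along the distance in kb from the start of each run; fetal-only H3K4me3 peaks are red and other H3K4me3 peaks grey. Of the 6 red peaks of the upper panel 5 lie over H3K27me3 of both stages, of the 6 of the middle panel 5 lie outside H3K27me3, and all 4 of the lower panel lie over H3K27me3 of both stages.

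For comparison, the 1180 adult H3K4me3 peaks without a fetal peak had a median width of 930 bp and a median score of 86.1 in their own list. Adult H3K27ac was found at 33.4% (30.7 to 36.2) of them and fetal H3K27ac at 35.1% (32.4 to 37.9). With the lists as deposited, acetylation was thus about as frequent in both lists there, and more often in the fetal list at fetal-only peaks. The fetal H3K27ac list is longer than the adult one. Cut to equal length, the lists gave fetal H3K27ac at 28.5% (26.2 to 30.8) and adult H3K27ac at 20.6% (18.6 to 22.7) of fetal-only peaks. Adult-only peaks were not read with lists of equal length. H3K27me3 of their own stage was found at 11.9% (10.1 to 13.8) of adult-only peaks, against 35.5% at fetal-only peaks. These shares come from different H3K27me3 lists, and the part of the lists in the difference was not tested. Fetal H3K27me3, read with 1 list for both groups, was found at 19.7% (17.5 to 22.1) of adult-only and 35.5% (33.1 to 38.0) of fetal-only peaks.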

How the data were processed

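H3K4me3, H3K27ac, H3K4me1, H3K27me3 and input were profiled by ChIP-seq in 10 groups of 2 samples. The 8 deposited peak lists were used; inputs, single replicates and read depth were not analysed here. Per the submitters' processing notes, reads were aligned with Bowtie2 2.2.2 to mm9. Names in the deposited lists begin with MACS; the caller's version, control and settings are not given in the sources used here. The score in the deposited lists is the authors' caller value and was used within a list only.

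Overlap meant at least 1 bp. Shares have 95% Clopper-Pearson intervals, and neighbouring peaks are not independent. Named peaks were the 5 members of highest score, of largest width, with most fetal H3K27ac and none in adult cells, and with most fetal H3K27me3, the 3 runs with most members, and 3 peaks on either side of the rule. The members and lists were chosen with earlier results of these data known. Gene positions, motifs and sequences were left out, since no table of the build was used. Interval code was tested on simulated data. Alternatives are described in the closing section. Calculations used Python 3.11.15, numpy 2.4.6, pandas 2.3.3, scipy 1.17.1 and matplotlib 3.10.9.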

Additional observations from a re-analysis of the deposited data

Results flagged for a closer look

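On chromosome X, outside the rule for the members, 29 of 534 fetal H3K4me3 peaks had no adult overlap, or 5.43% (3.67 to 7.71), against 9.14% (8.70 to 9.59) on chromosomes 1 to 19. The difference was not tested. Their median width was 686 bp and their median score 81.2. Of the 24 fetal H3K4me3 peaks on Y and unplaced contigs, all overlapped an adult peak.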

How the results depend on the processing

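No paired analysis was possible because only lists that combine both replicates were used, which also left no replicate to omit. Values count as moved outside their own 95% interval, and the number of peaks on changing by over 1.5 times. Of 51 alternative values 23 did not move. Some of these could not: a cut to equal length leaves the shorter lists, of adult H3K27ac, adult H3K4me1 and fetal H3K27me3, as they were. The depth behind the lists is unknown, so peaks absent from the adult list cannot be told apart from peaks not detected there.

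The number of fetal-only peaks was between 1253 and 1565 under 4 of 5 alternatives. Only 5 had a score of at least the fetal median. Over those 5 the median width was 3664 bp, the share next to a fetal-only peak 60.0%, and the shares with H3K27ac, H3K4me1 and H3K27me3 were 80.0%, 100% and 60.0% in the fetal and 0%, 20% and 60.0% in the adult lists. The median gap to a shared peak was 26678 bp without peaks that have adult H3K4me3 within 1 kb, and 27460 bp with peaks merged within 1 kb, when 14.4% were next to a fetal-only peak.

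With 50% of the peak covered, fetal H3K4me1 was at 55.1%, adult H3K4me1 at 0.991% and adult H3K27me3 at 17.9%. With the mark within 1 kb, fetal H3K27ac was at 37.2%, fetal H3K4me1 at 79.3%, adult H3K4me1 at 19.9% and adult H3K27me3 at 30.5%. With marks of at least their list's median score, H3K27ac was at 19.2% in the fetal and 7.20% in the adult list, H3K4me1 at 56.7% and 7.20%, and H3K27me3 at 31.1% and 22.5%. With both lists of a mark cut to the same number of top-scoring peaks, fetal H3K27ac was at 28.5%, fetal H3K4me1 at 29.3% and adult H3K27me3 at 24.1%. Stricter settings lower shares by construction. The share without chromosome 13 was added after the data had been seen.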
